A study of Rattus norvegicus with 4 samples.

Results

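A set of 135 genes, here called the genes raised late, was followed through 9 days of culture of ROE2 cells. ROE2 is an immortal rat line of oral epithelium, made from the tongue of a fetus aged 18 days. The genes were chosen by their own values on days 0, 3 and 9. Values are on the log2 scale. Day 3 had to lie within 1.5-fold of day 0 either way, day 9 had to be at least 1 higher than day 0 (2-fold), and at least 1 of the 4 arrays had to read 6 or more. Of 8802 genes with such a reading 146 met these limits, 1.66%, and 11 of them were left out by name (Dnajb9, Junb, Lrp6, Rab27b, Rab8b, S100a16, Slc16a6, Slc38a7, Slc6a8, Sprr2d and Wnt4), which leaves 1.53%. The late level was therefore fixed by the choice, is given only as a description, and carries no test.

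The line comes from Wistar-strain rats that carry the tsSV40 large T-antigen gene, so every array, day 0 included, is from cells with that transgene. The cells were grown for 24 h at 33 °C, at which the viral protein works and drives division, and were then moved to 37 °C, where they stayed 0, 3, 6 or 9 days, in medium with 2% fetal bovine serum, insulin, transferrin, ethanolamine, selenite and 10 ng/ml EGF, on collagen-coated dishes. Day 0 was the control. RNA of each day was hybridised to 1 Affymetrix array, so there are 4 groups of 1, no replicates and no p-value, and each difference below compares 2 arrays, in which day and array cannot be told apart. It is a single immortal line, and every value is a mean over all cells in the dish, so more RNA per cell and more cells with the RNA cannot be told apart.

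Stratified epithelium of the mouth renews from a basal layer. Cells that leave it stop dividing, strengthen their desmosomes, change their keratins, load lipid into the surface barrier and finally flatten and are shed. Transcription factors, chromatin enzymes, membrane traffic, protein turnover and signals between neighbouring cells all take part in these steps.

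A few facts about all 4 arrays bear on the set. The median of the 8802 genes lay at -0.18 and -0.14 against day 0 on days 6 and 9. Hybridisation spike-ins, which are foreign transcripts added in equal amount to each array, read higher with time, by a median of 0.14, 0.39 and 0.63 on days 3, 6 and 9 over 18 probe sets. That course has the same direction as the genes raised late. With arrays centred on the spike-ins, 24 of the 135 genes were at least 1 higher on day 9 and 20 met the whole rule. Such centring takes 0.63 off every gene on day 9, while the rule asked for at least 1. That all 135 stayed above 0, between 0.37 and 2.11, was therefore fixed by the choice. The part of the spike-ins in the result was not tested. Most markers of other cell types were low. On the array, 0 of 9 fibroblast, 0 of 6 endothelial, 0 of 6 melanocyte and 0 of 4 salivary gland genes reached 6. That level was reached by 1 of 9 leukocyte genes (Cd68), 1 of 7 muscle genes (Myh1) and 2 of 6 neural genes (Snap25 and Mbp). Myh1 and Mbp were not low, at 9.94, 10.28, 9.27 and 8.84 and at 9.59, 9.07, 9.54 and 9.89 on days 0, 3, 6 and 9. Snap25 and Cd68 were highest on day 3, at 8.39 and 6.54. Of the epithelial genes 9 of 9 basal and 8 of 10 suprabasal ones reached 6.

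The set was mostly up by day 6. Day 6 entered the choice only through the mean that picks the probe set of a gene and the lower limit on signal, although day 0, against which it is read, was used. Of the 135 genes, 69 (51.1%) were already at least 1 higher than day 0 on day 6, against 5.74% of all measured genes and 1.4% of those within 1.5-fold of day 0 on day 3. Another 53 were between 1.5-fold and 2-fold higher, against 6.33% of all genes, and 13 were below 1.5-fold, as were 87.9% of all genes. The median of the set was 0.28 on day 3, 1.01 on day 6 and 1.22 on day 9. On day 3, 113 of the genes already read above day 0, against 44.2% of all genes. Days 0 and 3 were used by the choice, so nothing is read from that count. From day 6 to day 9 the median difference was 0.26, with 107 genes higher, 79.3%, against 57.8% of all genes and a median of 0.05 over them.

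**Figure D1:**
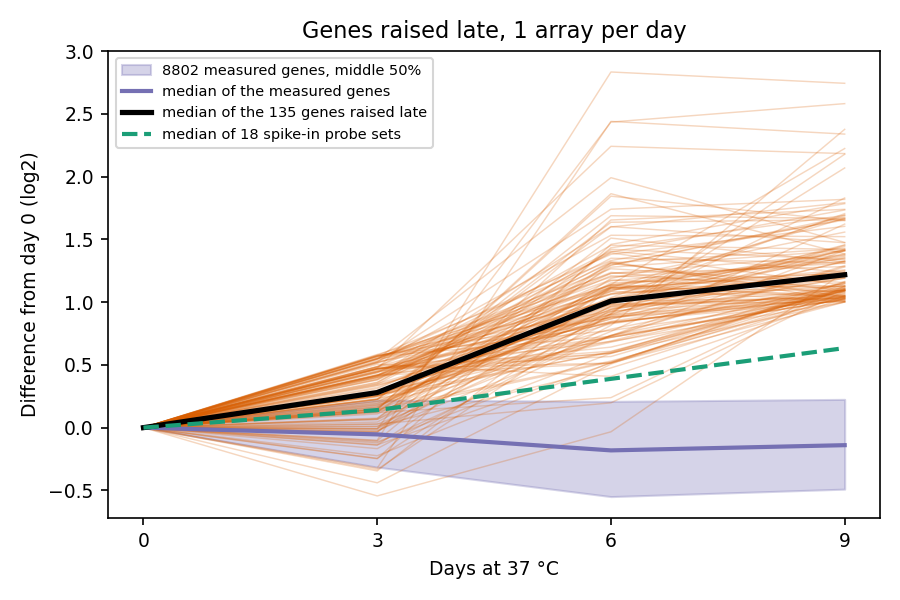
Difference from day 0 on the log2 scale (vertical) by day at 37 °C (horizontal), with a thin line for each of the 135 genes, the median of the set in black, the median and middle 50% of the 8802 measured genes in purple and the median of 18 spike-in probe sets as a dashed green line, 1 array per day. The median of the set goes from 0.28 on day 3 to 1.01 on day 6 and 1.22 on day 9, while the measured genes stay at -0.18 and -0.14 on the last days.

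A steeper group stood out within it. For 133 genes both late arrays (days 6 and 9) read above both early ones (days 0 and 3), which held for 18.8% of all measured genes. For 26 of them the lower of the late arrays was still at least 1 above the higher of the early arrays, which held for 47 of all measured genes, 0.534%. Those 26 are Zbtb41, Ubn2, Wasf2, Iffo2, Nipbl, Trib1, Car2, Tanc2, Clip1, Wac, Herc1, Edn1, Arhgap5, Pi4k2a, Socs3, Suco, Ddx6, Nt5c2, Cdk13, Bmpr2, Xiap, Cxcr2, Kdm5b, Cited2, Ankrd11 and Rnf223. Days 0, 3 and 9 of these gaps were used by the choice, so the count describes the shape of the set and is no support for it. The exceptions at the other end were Nog and Cemip2, whose day 6 value lay between those of the early arrays.

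**Figure D2:**
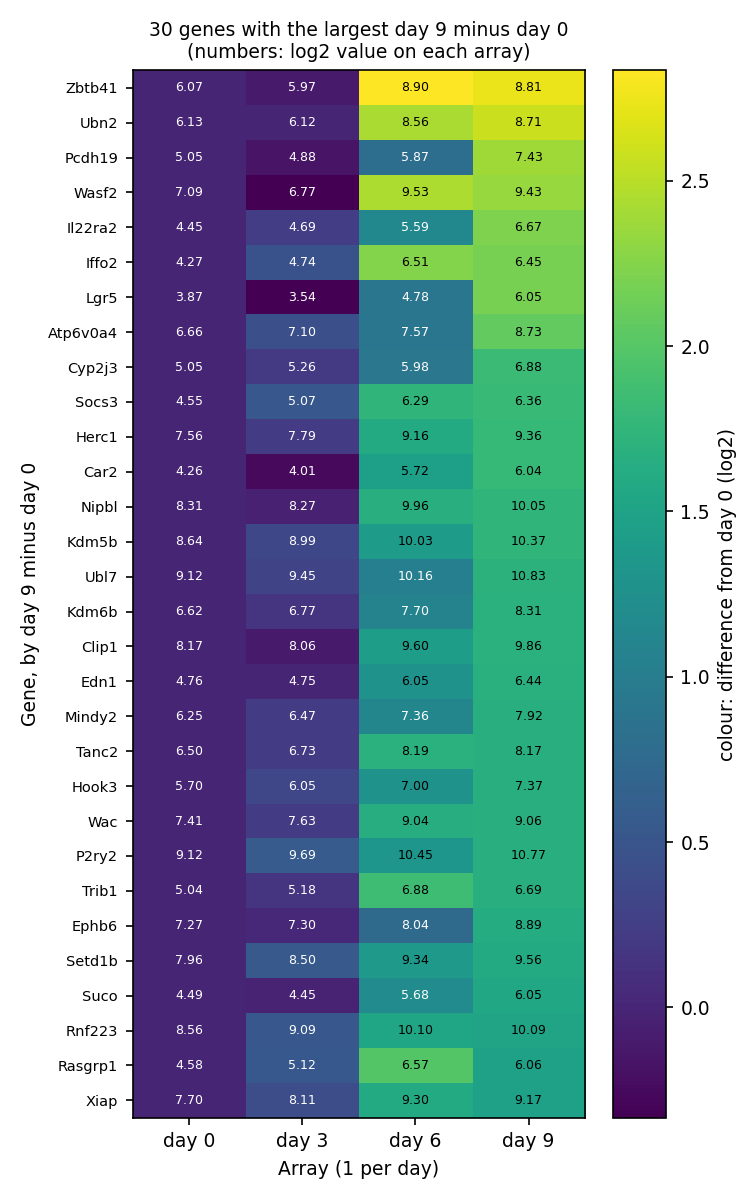
Log2 value on each array (printed in the cells, columns are days) for the 30 genes with the largest difference between days 9 and 0, ordered by that difference, with colour for the difference from day 0. Zbtb41, Ubn2, Wasf2 and Iffo2 reach their late level on day 6, while Pcdh19, Lgr5 and Atp6v0a4 are highest on day 9.

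The 135 genes were then sorted by what their products do. This sorting was made by hand after the values were seen, and 22 genes were left outside the 9 groups. In the sentences below a run of 4 values gives the log2 level on days 0, 3, 6 and 9 in that order.

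Chromatin and transcription machinery was the group with the highest median on day 6, at 1.27, and held 16 genes, 12 of them at least 1 higher by then. Its steepest member was Ubn2, which encodes a subunit of the complex that deposits histone H3.3, at 6.13, 6.12, 8.56 and 8.71. Nipbl, the gene of the protein that loads cohesin onto DNA, read 8.31, 8.27, 9.96 and 10.05. Wac, whose product helps to attach ubiquitin to histone H2B, was at 7.41, 7.63, 9.04 and 9.06. In all 3 the early arrays lay close together and the late arrays close together, more than 1 apart. The histone demethylase genes Kdm5b, for H3 lysine 4, and Kdm6b, for H3 lysine 27, were both higher on each successive array. Kdm5b read 8.64, 8.99, 10.03 and 10.37 in its brightest probe set, while its 2 others that reached 6 were only 0.49 and 0.83 higher on day 9. Kdm6b read 6.62, 6.77, 7.70 and 8.31, with 0.61 of its gain after day 6. Setd1b, which encodes a methyltransferase for the same H3 lysine 4 that Kdm5b acts on, was at 7.96, 8.50, 9.34 and 9.56. Dnmt3a, a DNA methyltransferase that sets new marks, was a late member, lower on day 3 and highest on day 9, at 7.23, 6.79, 7.74 and 8.39. Cited2, whose product binds the coactivators CBP and p300, had 10.11, 10.52, 11.57 and 11.53, and Ankrd11, a regulator of histone acetylation, 7.47, 7.54, 8.77 and 8.56, both without a further gain after day 6. The remaining members were Msl1, Arid4a, Rcor1 of the CoREST repressor, Cdk13, a kinase of RNA polymerase II, Vgll3, Baz2b and Gatad2b of the NuRD complex, which were 1.04 to 1.45 higher on day 9.

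The 8 genes of DNA-binding factors were led by Zbtb41, a zinc finger gene with the largest day 9 difference of all 135, at 6.07, 5.97, 8.90 and 8.81. It changed between days 3 and 6 and was flat on either side. Ehf, which encodes an ETS factor of epithelial cells, was at 6.97, 7.42, 8.04 and 8.16, and Klf3, a repressor of the Kruppel family, at 9.99, 10.53, 10.83 and 10.9999. Both climbed in small steps, the larger part of the Klf3 gain lying before day 3. Stat6, the factor activated by interleukin-4 and interleukin-13, read 5.71, 5.88, 6.83 and 7.05. Nr1h2, the gene of the oxysterol receptor LXR-beta, was at 7.31, 7.50, 8.32 and 8.54, and Crebl2, Plagl2 and Foxn3 were 1.36, 1.19 and 1.03 higher on day 9.

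Of 7 genes for RNA-binding and RNA-processing proteins, Ddx6, a helicase of processing bodies that silences and decaps messenger RNA, showed the clearest step, at 9.96, 10.12, 11.38 and 11.30. The gap between the early and the late arrays was 1.19. Ro60, an RNA quality control protein, instead gained by 0.75 from day 3 to day 6 and by 0.68 from day 6 to day 9, at 5.10, 5.08, 5.84 and 6.51. Cwf19l2, a protein linked to the spliceosome, was 1 of the 5 members with the largest loss after day 6, at 4.76, 4.88, 6.07 and 5.80. Isg20, an RNA exonuclease induced by interferon, was at 7.43, 8.004, 8.20 and 8.46, very near the day 3 limit. Fxr2, Tent5b and the splicing factor gene Wbp4 were 1.15, 1.05 and 1.03 higher on day 9.

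The ubiquitin system gave 11 genes, with a median of 1.11 on day 6 and 8 at least 1 higher by then. Herc1, a giant ubiquitin ligase, read 7.56, 7.79, 9.16 and 9.36. Xiap, the ligase that blocks caspases, was at 7.70, 8.11, 9.30 and 9.17, and the ring finger gene Rnf223 at 8.56, 9.09, 10.10 and 10.09. In these 3 days 6 and 9 differed by at most 0.19. Ubl7 and the deubiquitinase gene Mindy2 went on to gain, at 9.12, 9.45, 10.16 and 10.83 and 6.25, 6.47, 7.36 and 7.92. Rnf39 was at 10.32, 10.63, 11.42 and 11.32 and Usp2, a deubiquitinase with a daily rhythm in many tissues, at 8.37, 8.94, 9.30 and 9.41. Usp7, the deubiquitinase of MDM2 and p53, read 9.66, 9.54, 10.40 and 10.76 in its brightest probe set. Of its 2 others that reached 6, one was 0.78 higher on day 9 and one was at -0.14. Zyg11b, Ube2r2 and Zranb1 were 1.24, 1.22 and 1.201 higher on day 9.

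Actin, microtubule and small GTPase genes numbered 14. Wasf2, which encodes WAVE2, the activator of branched actin at the cell edge, had 7.09, 6.77, 9.53 and 9.43, and Wasl, the gene of the related activator N-WASP, 10.58, 10.96, 11.81 and 11.86. The Wasf2 step between days 3 and 6 was 2.76, against 0.85 for Wasl. The microtubule genes Clip1, a plus-end tracker, and Hook3, a dynein adaptor, were at 8.17, 8.06, 9.60 and 9.86 and 5.70, 6.05, 6.997 and 7.37. Both were over 1.5 higher on day 9, and Clip1 was flat until day 3. Rasgrp1, an exchange factor for Ras, was highest on day 6 and then lost more than any other member, at 4.58, 5.12, 6.57 and 6.06. Arhgap5 also peaked on day 6, at 9.38, 9.45, 10.89 and 10.70, as did the Ras inactivator gene Rasal2, at 8.76, 9.31, 10.03 and 9.92. Myo10, the motor of filopodia, and Arhgap32 were slower, with 6.41, 6.19, 6.93 and 7.54 and 5.93, 6.06, 6.45 and 7.03, and were only 0.52 higher on day 6. Akap13, Tubb3, Spire2, Myo18a and Ndel1 were 1.00 to 1.23 higher on day 9.

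**Figure D3:**
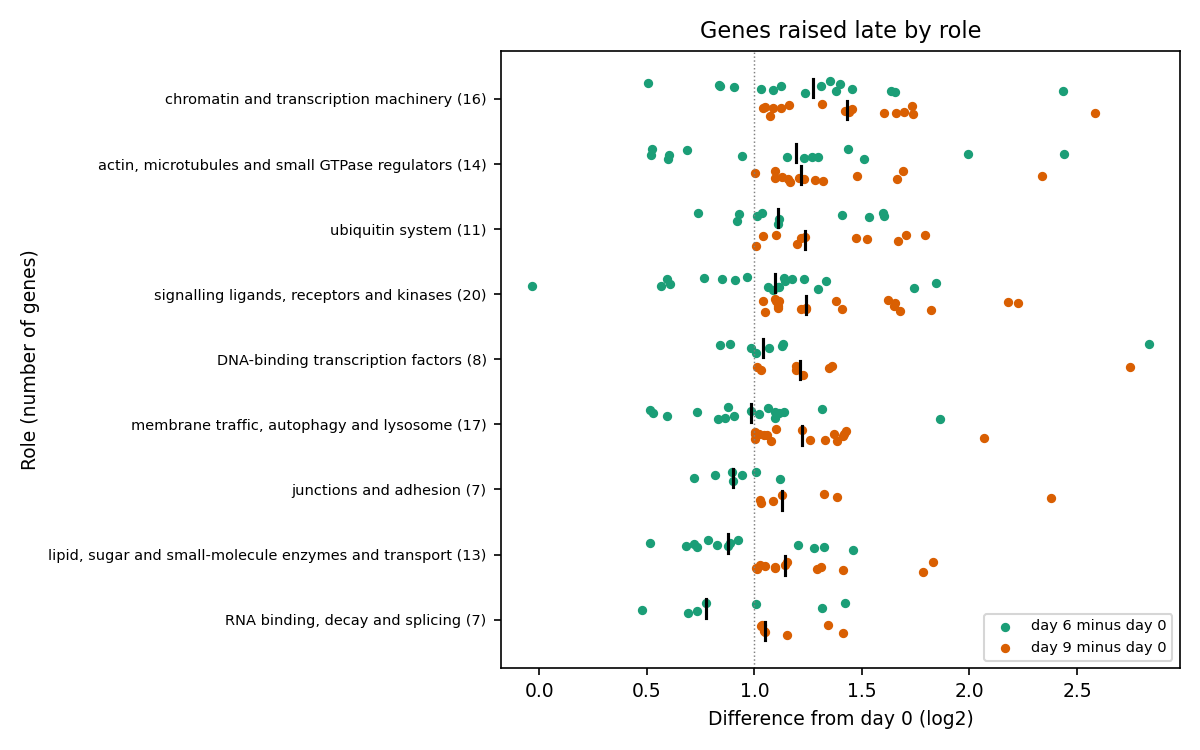
Difference from day 0 on the log2 scale (horizontal) of the genes of each role group (vertical, with the number of genes), green points for day 6 and orange points for day 9, with a black bar at each median. On day 6 the medians run from 0.77 for the RNA group to 1.27 for chromatin and transcription machinery, and on day 9 every point lies at 1 or above because the genes were chosen so.

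Membrane traffic, autophagy and lysosome genes, 17 in all, had a median of 0.98 on day 6. Atp6v0a4, a subunit of the proton pump that acidifies lysosomes and the surface of some epithelial cells, was at 6.66, 7.10, 7.57 and 8.73, with 1.16 of its gain after day 6. Pi4k2a, a lipid kinase of endosomes and the Golgi, ran the other way, at 6.08, 6.22, 7.94 and 7.46, and was lower by day 9 than on day 6. The endocytosis genes Itsn2 and Ston2 were 1.37 and 1.43 higher on day 9, and Ehd1, for recycling from endosomes, read 8.37, 8.95, 9.25 and 9.48. Stx12, a SNARE of recycling endosomes, was at 9.62, 9.89, 10.35 and 10.64. Among genes of autophagy and its regulation, Ulk1, the kinase that starts it, was at 7.39, 7.81, 7.99 and 8.39 and Rubcn, which holds it back, at 7.39, 7.88, 8.23 and 8.47. Mon1b, whose product acts in the switch from early to late endosomes, had 7.43, 7.90, 7.94 and 8.43. These 3 gained in small steps and were between 1.00 and 1.08 higher on day 9. Osbpl1a, Pld3, Golph3l, Blzf1, Pacsin3, Pld1, Gbf1 and Sec14l1 were 1.00 to 1.41 higher.

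Among 7 junction and adhesion genes were Dsg1 and Jup of the desmosome, the spot weld between keratinocytes. Dsg1, the desmosomal cadherin of upper layers, read 9.76, 9.95, 10.71 and 11.15, and Jup, which encodes plakoglobin, 11.81, 12.09, 12.82 and 12.94. In the brightest probe set of both, the day 9 array was the highest and the day 3 array was at most 0.28 above day 0. Another probe set of Dsg1 was already 0.83 higher on day 3, beyond the day 3 limit. Pcdh19, a protocadherin known from neurons, was lower on day 3, 0.82 above day 0 on day 6 and then higher by 1.56 from day 6 to day 9, the largest gain of the set in that interval, at 5.05, 4.88, 5.87 and 7.43. Fat2, a giant cadherin of keratinocytes that acts in cell migration, was at 6.23, 6.79, 7.34 and 7.31. Igsf3, the polarity scaffold gene Erbin and Pcdhb19 were 1.32, 1.03 and 1.02 higher on day 9.

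Signals were the largest group, with 20 genes for ligands, receptors, kinases and their brakes. Among secreted ligands and antagonists, Edn1, the gene of endothelin-1, read 4.76, 4.75, 6.05 and 6.44. Il22ra2, a soluble decoy that binds interleukin-22, was at 4.45, 4.69, 5.59 and 6.67. Nog, the secreted antagonist of bone morphogenetic proteins (BMPs), was the only 1 of the 135 genes below day 0 on day 6, at 5.05, 4.51, 5.02 and 6.29, with all of its gain on the last array. The receptor gene Bmpr2, for the BMPs that Nog binds, had 8.16, 7.81, 9.27 and 9.37 and was up by day 6. Lgr5, a receptor for R-spondins and a stem cell marker in several epithelia, was at 3.87, 3.54, 4.78 and 6.05. Its day 0 value was under the highest reading among 27 bacterial controls of that array (4.19), which places day 9 at least 3.62-fold above it. The day 3 value of Lgr5 was also under the highest control reading of its array (4.36). P2ry2, a receptor for extracellular ATP and UTP, read 9.12, 9.69, 10.45 and 10.77, Cxcr2, a chemokine receptor, 5.06, 5.13, 6.17 and 6.30, and Ephb6, an ephrin receptor without kinase activity, 7.27, 7.30, 8.04 and 8.89. P2ry2 was near the day 3 limit, whereas Cxcr2 and Ephb6 hardly differed between days 0 and 3. Of the intracellular members, Socs3, the feedback inhibitor of STAT3 signalling, was at 4.55, 5.07, 6.29 and 6.36 and Trib1, a pseudokinase scaffold for protein breakdown, at 5.04, 5.18, 6.88 and 6.69. Map3k8, a kinase upstream of ERK, read 6.57, 7.13, 7.80 and 7.95, and Nox1, an oxidase that makes superoxide, 7.38, 7.83, 8.44 and 8.79. Socs3 and Trib1 were near their late level by day 6. Epha4, Csnk2a1, Ensa, Shoc2, Grm8, Grk5, Gng8 and Sash1 were 1.04 to 1.12 higher on day 9.

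The 13 enzyme and transport genes held several with known places in the surface barrier. Pnpla1, which encodes the acyltransferase for the barrier ceramides, was at 6.36, 6.91, 7.56 and 7.67. Ugcg, the gene of glucosylceramide synthase, peaked on day 6, at 6.77, 7.13, 8.09 and 7.78. Tmem79, a membrane protein of the lamellar granule system, read 8.71, 8.84, 9.44 and 9.997. Cptp, a carrier of ceramide-1-phosphate that is not counted here as a barrier gene, was 1.09 higher on day 9. All 4 were within 1.5-fold of day 0 on day 3 by the choice, and on day 6 only Pnpla1 and Ugcg were at least 1 higher. Cyp2j3, an epoxygenase of arachidonic acid, was at 5.05, 5.26, 5.98 and 6.88. Car2, which encodes a carbonic anhydrase, was at 4.26, 4.01, 5.72 and 6.04, its day 3 value lying below the brightest bacterial control of that array (4.36). Nt5c2, a purine nucleotidase, had 7.71, 7.84, 8.99 and 9.13. Fut2, the fucosyltransferase that puts the H antigen on secreted mucins, was 1.05 higher on day 9, and Chst12, Agpat1, Abcc1, Cpd and Ethe1 were 1.01 to 1.15 higher.

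Outside the groups, Iffo2, an orphan of the intermediate filament family, read 4.27, 4.74, 6.51 and 6.45, the scaffold gene Tanc2 6.50, 6.73, 8.19 and 8.17 and Suco 4.49, 4.45, 5.68 and 6.05. All 3 were up by day 6. Scaper, a protein of the endoplasmic reticulum that binds cyclin A, was lower on day 9 than on day 6, at 6.59, 6.97, 7.98 and 7.72. Narf, Pxmp4, Frrs1 and Cemip2 were among the 13 genes below 1.5-fold on day 6, with log2 differences of 0.24, 0.20, 0.51 and 0.41. The other 14, Crybg2, Tmem238l, Grina, Endod1, Ttc39b, Cpne3, Plxdc2, Sgtb, Lypd6b, Kpna6, Tmem265, Ier5l, Fgfr1op2 and Plekhn1, were 1.03 to 1.46 higher on day 9.

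The last interval separated the members further. From day 6 to day 9, 16 genes were over 1.5-fold higher, against 2.66% of all measured genes, and 5 of them, Pcdh19, Nog, Lgr5, Atp6v0a4 and Il22ra2, were at least 1 higher, against 0.25% of all. Another 119 stayed within 1.5-fold, as did 94.5% of all genes, and 0 were over 1.5-fold lower. Day 9 was used by the choice, so a lean towards gains in this interval is in part given by it. Pcdh19, Nog, Lgr5 and Il22ra2 also passed the lower limit on signal, a reading of 6, only through day 9. The shares of all genes are therefore given as a description and are no support for these counts. The 28 genes lower on day 9 than on day 6, where 42.1% of all genes were lower, were led by Rasgrp1 at -0.52, Pi4k2a at -0.48, Ugcg at -0.31, Cwf19l2 at -0.27 and Scaper at -0.26.

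**Figure D4:**
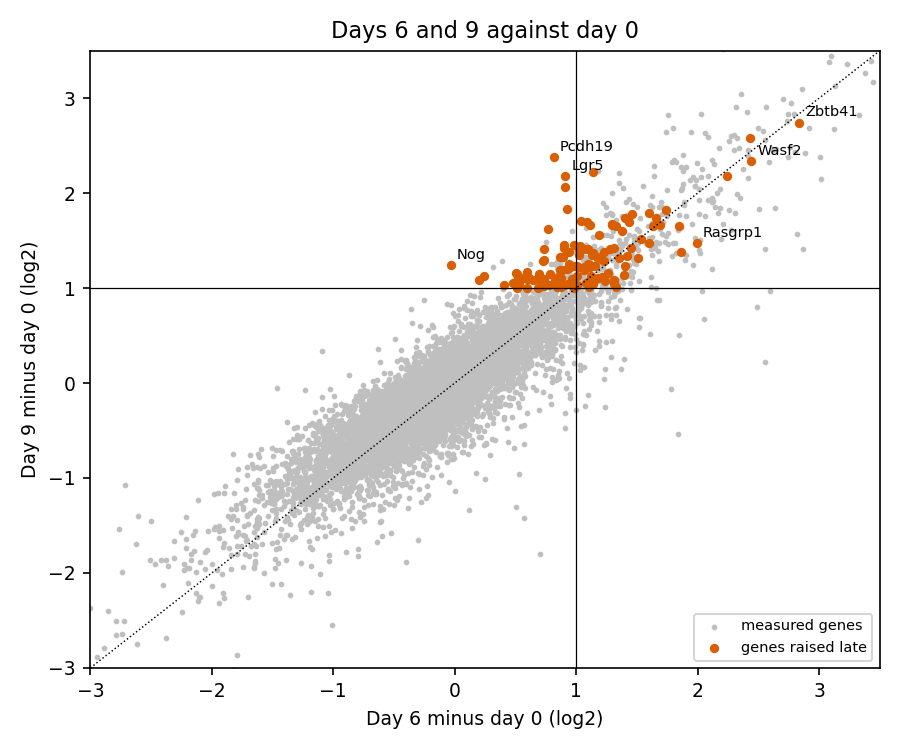
Day 9 minus day 0 (vertical) against day 6 minus day 0 (horizontal), both on the log2 scale, with a grey point for each measured gene and an orange point for each gene raised late. Lines mark 1, the dotted line marks equal values, and 28 measured genes lie outside the plotted range of -3 to 3.5. Nog, Pcdh19 and Lgr5 lie far above the dotted line and Rasgrp1 below it.

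Some members lie close to the limits of the rule. In 64 of the 135 genes day 9 was less than 1.2 above day 0. Just inside the day 9 limit were Mon1b, Ulk1 and Ndel1 (8.40, 8.87, 9.08 and 9.40), each 1.00 higher, and just outside it Tmem109 (10.01, 10.32, 10.57 and 11.01), the autophagy protease gene Atg4d (6.40, 6.84, 7.09 and 7.40) and Cdkn1b, the gene of the cell cycle inhibitor p27 (11.10, 11.65, 12.13 and 12.10). The courses on either side of this limit look alike. Just inside the day 3 limit were Crebl2, Isg20 and P2ry2, at 0.58, 0.58 and 0.57 on day 3. Crebl2 read 5.60, 6.18, 6.73 and 6.96. Just outside were Borcs6 (6.15, 6.74, 7.04 and 7.31), Tmem50b (8.83, 9.42, 10.32 and 10.26) and the elongation factor gene Ell2 (8.41, 9.01, 9.47 and 9.83), each at 0.59 on day 3. These too had late levels like those of members. At the lower limit on signal Car2, Suco and Lgr5 had their highest value at 6.04, 6.05 and 6.05, while Cyp2f4 (4.67, 4.34, 4.59 and 5.94), Spata2L (4.82, 4.90, 5.64 and 5.93) and Zfp618 (4.16, 3.59, 5.40 and 5.76) missed it. In all, 10 genes met the limits on days 3 and 9 but not this one. The mirrored rule, with day 9 at least 1 lower, was met by 231 genes, 2.62%, before any were left out by name.

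Many genes on this array have more than 1 probe set, which may read different stretches of the transcript. The brightest stood for the gene, so the others took no part in the choice, though they were read on the same RNA and arrays and repeat the same contrast. In 9 of the 135 genes the brightest carries a cross-hybridisation mark, for probes that may match more than 1 transcript. With marked probe sets left out, 128 of the 135 were still at least 1 higher on day 9, and the lowest was at 0.11. Of the 135 genes 48 had another probe set that reached 6 on some array, 71 such probe sets in all. Of these 28 (39.4%) were at least 1 higher on day 9, against 11.1% of 2700 other probe sets over all measured genes, 67 (94.4%) were above day 0, against 54.6%, and 22 met the limits on both days 3 and 9, against 7.22%. Their median was 0.25, 0.85 and 0.84 on days 3, 6 and 9. On day 3, 57 of the 71 lay within 1.5-fold of day 0, as did 2166 of the 2700. Those beyond it on day 3 include probe sets of Dsg1, at 0.83, Itsn2, at 0.73, Blzf1, at 0.74, and Epha4, at 0.80. Others are of Klf3, at 0.62 and 0.82, Wasl, at 0.64, and Sec14l1, at 1.15. For these genes the late start rests on the brightest probe set or on part of the probe sets. In 20 genes every other such probe set was at least 1 higher on day 9, among them Herc1, at 3.02, Clip1, at 1.98, Rcor1, at 1.77, Dsg1, at 1.53 and 1.65, Itsn2, at 1.09, 1.51 and 1.55, and Cited2, at 1.17. In 25 genes none was, among them Kdm5b, at 0.49 and 0.83, Msl1, at 0.12 and 0.82, Ubl7, at 0.58, and Cdk13, at 0.11. In 9 genes no other such probe set was even 1.5-fold higher on day 9. They are Ubl7, Cdk13, Scaper, at 0.10, Akap13, at 0.16, Fgfr1op2, at 0.20, Ehd1, at 0.25, Erbin, at 0.29, Zranb1, at 0.30, and Usp2, at 0.45. The values given above for these genes are those of the brightest probe set alone. Nipbl was split, with 2.31 in one probe set and 0.13 in another. In Csnk2a1, Ensa and Usp7 at least 1 other probe set was below 0 on day 9. Csnk2a1 was at 10.21, 10.74, 11.38 and 11.31 in its brightest, with 0.88, 0.59, -0.06 and -0.15 on day 9 against day 0 in the others. Ensa was at 8.44, 8.33, 9.03 and 9.54 in its brightest, with 0.88 and -0.38 in the others. For Usp7 the others gave 0.78 and -0.14. The remaining 87 genes, Zbtb41, Ubn2 and Wasf2 among them, had no other probe set that reached 6, so their values rest on 1 probe set. Probe sets built on a RefSeq mRNA rather than another sequence record stood for 12.6% of the set and 12.2% of all measured genes.

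**Figure D5:**
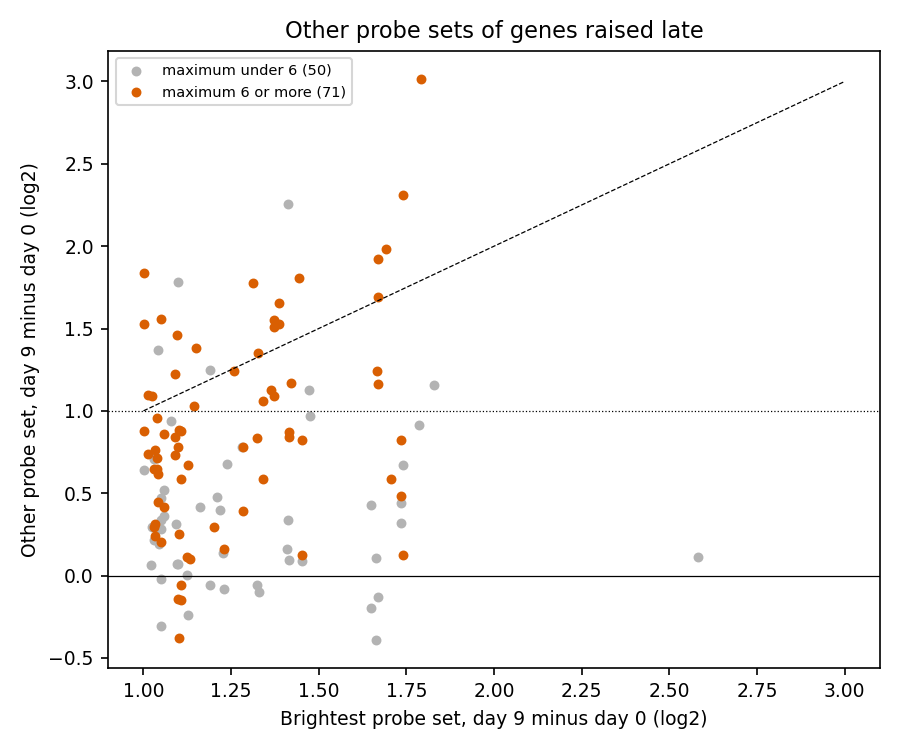
Day 9 minus day 0 on the log2 scale in other probe sets of the genes raised late (vertical) against the same difference in the brightest probe set (horizontal), orange for the 71 that reached 6 on some array and grey for the 50 that did not. Of the orange points 28 lie at or above the dotted line at 1 and 4 lie below 0, and the dashed line marks equal values.

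Lists of 25 pathways and gene families put the members beside other genes of the same kind. The lists were drawn up with earlier results of these data known. The set shares 28 genes with these lists. In 7 lists 2 or more members occur, and the shares below are read against 1.53% for the set, and 5.57% higher and 6.25% lower by at least 1 on day 9, over all measured genes. The same shares were 4.31% and 2.15% on day 3, and 5.74% and 8.08% on day 6. Of 74 small GTPase and actin genes 5 were raised late (Arhgap5, Arhgap32, Myo10, Rasal2 and Rasgrp1), with 11 higher and 8 lower by at least 1 on day 9 and a list median of 0.06. Of 72 chromatin and RNA regulator genes 3 were raised late (Dnmt3a, Kdm5b and Kdm6b), with 6 higher and 4 lower and a median of 0.04. Of 72 ubiquitin ligase, deubiquitinase and SOCS genes 3 were (Rnf39, Socs3 and Usp2), with 6 higher and 2 lower and a median of 0.06. In each of these 3 lists genes at least 1 higher and genes at least 1 lower on day 9 occurred together, and the medians lay near 0. Of 70 endosome and traffic genes 2 were raised late (Ehd1 and Stx12), with 4 higher, 1 lower and a median of 0.24, and of 49 adhesion genes 2 (Dsg1 and Jup), with 9 higher, 3 lower and a median of 0.17. The 23 barrier lipid genes had 8, 12 and 11 at least 1 higher on days 3, 6 and 9, 0 lower, and list medians of 0.55, 1.03 and 0.90, and Pnpla1 and Ugcg as the 2 that were late. Likewise 13, 17 and 19 of 40 differentiation factor genes were higher on these days and 0 lower, with medians of 0.64, 0.84 and 0.83, and Ehf and Klf3 were the late ones. On day 3 the adhesion, ubiquitin and endosome lists had 7, 6 and 3 genes at least 1 higher, the small GTPase list 5 and the chromatin list 3. In 10 further lists 1 member occurred, and in 8, among them the 33 genes of the cornified envelope and terminal differentiation, 0 did. Of those 33 genes 12 were at least 1 higher on day 3 and 22 on day 9. Symbols starting with Krt, Sprr, Klk or Lgals, among others, were left out of the set by name but not out of the lists. Wherever a list holds such genes, a low count or a count of 0 is therefore in part given by the choice.

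The set can also be set beside the 218 genes that were at least 1 higher on both day 3 and day 9. Both sets were defined by days 0, 3 and 9 and share the day 0 array, so only their values are given. The early set had a median of 1.52, 1.84 and 1.76 on days 3, 6 and 9, and the genes raised late 0.28, 1.01 and 1.22. From day 6 to day 9 the medians were -0.07 and 0.26, and 92 of the 218 early genes (42.2%) were higher on day 9 than on day 6, against 79.3% of the late ones.

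Promoter windows of 250 bases before to 50 after the start of the gene were taken from RefSeq on the GRCr8 build, with matching symbols for 107 of the 135 genes. The 28 without a window are Car2, Cdk13, Cemip2, Clip1, Cpd, Cpne3, Ddx6, Ehf, Epha4, Ethe1, Gng8, Grina, Hook3, Il22ra2, Lgr5, Pacsin3, Pcdh19, Plxdc2, Pnpla1, Suco, Tmem265, Tmem79, Trib1, Ube2r2, Ugcg, Usp7, Wbp4 and Xiap. Of 17 motifs searched on both strands, the forkhead (FOX) motif TGTTTAC had the largest excess in proportion over the measured genes. It was present in 8 of the 107 genes, 7.48%, against 2.62% of 7442 measured genes and 4.13% of all 27457 genes in the table. The GATA motif AGATAA was found in 11.2%, against 6.1% of measured genes, the KLF motif GGGTGTGG in 6.54% against 3.82%, and the interferon motif GAAANNGAA in 3.74% against 7.2%. The C/EBP motif TTGCNNAA stood at 3.74% against 8.16%, the GC box GGGCGG at 59.8% against 66.9%, the CCAAT box CCAAT at 35.5% against 39.4%, the AP-1 motif TGANTCA at 6.54% against 5.58%, the E-box CACGTG at 6.54% against 10.7%, the ETS motif CCGGAAGT at 6.54% against 9.92%, the TEAD motif GGAATG at 12.1% against 11.7%, the NF-kB motif GGANTTNCC at 4.67% against 4.25%, the TATA box TATAAA at 6.54% against 6.73% and the CRE motif TGACGTCA at 0.935% against 3.61%. The D-box TTATGNAA, the GRHL motif AACCGGTT and the E2F motif TTTCGCGC were in 0 of the 107, against 1.69%, 0.255% and 0.779%. Matches of different motifs may overlap and each is counted, most counts are small, and a match is a description of letters only.

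Shown here are the windows of 4 members that differ in role, 3 of them among the 8 genes with the forkhead motif. Edn1 (chr17:22666638-22666937, minus strand) and Wasf2 (chr5:150620483-150620782, plus strand) belong to the steep group, Rnf39 (chr20:1615467-1615766, minus strand) has a forkhead motif and a TATA box at -31, and Kdm6b (chr10:54640965-54641264, minus strand) gained on each array and has no forkhead motif. Sequences run 5′ to 3′ with respect to the gene, capitals mark every match to any of the 17 motifs on either strand, and positions count bases from the annotated start, which is 0.
Edn1: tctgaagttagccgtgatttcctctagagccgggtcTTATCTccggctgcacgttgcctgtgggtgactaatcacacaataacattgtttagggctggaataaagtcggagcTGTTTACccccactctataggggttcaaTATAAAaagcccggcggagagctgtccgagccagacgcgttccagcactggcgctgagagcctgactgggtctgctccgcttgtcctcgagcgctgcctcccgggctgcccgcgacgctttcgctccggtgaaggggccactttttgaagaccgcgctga
Wasf2: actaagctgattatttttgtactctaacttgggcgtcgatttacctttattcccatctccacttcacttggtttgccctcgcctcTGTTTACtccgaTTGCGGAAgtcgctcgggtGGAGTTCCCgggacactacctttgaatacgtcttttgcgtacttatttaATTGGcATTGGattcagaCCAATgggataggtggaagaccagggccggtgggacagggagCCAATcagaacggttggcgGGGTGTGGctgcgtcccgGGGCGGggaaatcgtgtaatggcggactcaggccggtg
Rnf39: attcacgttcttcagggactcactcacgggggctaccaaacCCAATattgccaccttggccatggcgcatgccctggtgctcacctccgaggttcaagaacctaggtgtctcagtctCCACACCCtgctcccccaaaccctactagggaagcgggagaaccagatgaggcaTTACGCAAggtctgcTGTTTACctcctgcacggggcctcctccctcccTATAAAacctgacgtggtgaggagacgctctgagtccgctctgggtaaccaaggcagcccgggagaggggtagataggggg
Kdm6b: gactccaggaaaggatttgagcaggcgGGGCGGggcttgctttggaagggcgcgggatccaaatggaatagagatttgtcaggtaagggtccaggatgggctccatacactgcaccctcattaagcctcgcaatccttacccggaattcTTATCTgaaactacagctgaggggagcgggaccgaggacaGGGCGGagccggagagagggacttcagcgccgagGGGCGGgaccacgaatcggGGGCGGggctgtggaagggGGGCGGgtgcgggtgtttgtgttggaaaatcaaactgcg
In Edn1 the matches are a GATA motif at -214, the forkhead motif at -138 and a TATA box at -110. Wasf2 holds 9 matches, among them the forkhead motif at -165, a C/EBP motif at -153, the NF-kB motif at -134 and a GC box at 12. Rnf39 carries a CCAAT box, a KLF motif, a C/EBP motif at -79 and the forkhead motif at -64 in addition to its TATA box. The Kdm6b window has 5 GC boxes and 1 GATA motif. All 4 had their largest step between days 3 and 6, by 1.30 in Edn1, 2.76 in Wasf2, 0.80 in Rnf39 and 0.94 in Kdm6b. Kdm6b gained a further 0.61 in the next interval.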

How the data were processed

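Each of 4 arrays of the Affymetrix Rat Genome 230 2.0 type holds RNA of 1 day. The deposited values are log2 signals per probe set, made by the authors with RMA (background correction, quantile normalization and summary over probes), per the submitters' processing notes for the name RMA. That they are log2 was read from their range, 1.55 to 14.23. Which program ran RMA, in which version and with which settings, is not given in the sources used here. RMA sets all arrays to one distribution, so a shift common to most genes would not be seen.

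Of 31099 probe sets, 20832 have 1 gene symbol, 436 several and 9831 none in the platform annotation. Only the first were used, and the probe set with the highest mean stood for the gene (14218 genes). Differences between days were computed with pandas 2.3.3 and numpy 2.4.6 under Python 3.11.15, drawn with matplotlib 3.10.9, and the selection was tested on simulated data. With 1 array per group there was no test.

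Members, lists and motifs were chosen with earlier results of these data known. Values on all 4 arrays were given for the 30 members with the largest day 9 difference, for members of a list with 2 or more of them, for the 3 genes on each side of a limit, for the 5 largest gains and losses after day 6 and for members whose other probe sets went below 0. Role groups and further named members followed after values were seen. Alternatives changed the probe set rule, the scaling, the limits, the lower limit on signal and the names left out.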

Additional observations from a re-analysis of the deposited data

How the results depend on the processing

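Each alternative chose the genes anew by the same kind of rule, so the counts and the day 9 median could not change direction. The medians on day 6 and from day 6 to day 9 kept their direction, though each shares day 0 or day 9 with the rule. Scaling mattered most: with arrays centred on the spike-ins 26 genes met the rule, 20 of them among the 135 (14.8%), 16 were at least 1 higher on day 6, and the median from day 6 to day 9 was 0.084. The spike-ins moved by a median of 0.63 by day 9, which that centring takes off every gene. The limits set the size of the set by their construction. With day 3 within 0.4, 81 genes met the rule and 39 were at least 1 higher on day 6. With day 9 at least 1.5-fold higher, 488 did and their median on day 6 was 0.67. With day 9 at least 3-fold higher, 26 did and 21 were at least 1 higher on day 6. Counts under the other 9 alternatives lay between 96 and 195. With the mean over the probe sets of a gene in place of the brightest, 123 genes met the rule, 87 of them among the 135, and 89 of the 135 were still at least 1 higher on day 9. No paired analysis was possible because each day has 1 array. Precision is limited by having 4 arrays. Low values such as those of Lgr5 and Car2 lie near the bacterial controls. On day 0, 26 of the 135 genes read below 6. Among them Iffo2, at 4.27, lay just above the brightest bacterial control of that array, at 4.19.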
